A study of Mus musculus with 2 samples.

Results

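The 10 genes described here encode subunits of the polycomb repressive complexes: Ezh2, Suz12, Eed, Jarid2 and Mtf2 of PRC2, and Rnf2, Ring1, Pcgf6, Cbx7 and Rybp of PRC1. They were taken as a list of gene names, and a listed m6A position counted for a gene when it lay in an exon of that gene on the same strand. The 10 genes held 325 of the 160430 positions in the deposited lists, and 10912 genes held at least 1 position. Native poly(A) RNA of 129 mouse embryonic stem cells (mESCs) was read by nanopore direct RNA sequencing (DRS), with 1 library of wild-type (WT) cells and 1 library of Mettl3 knockout (KO) cells. In the KO cells, exons 5 to 7 of Mettl3, the catalytic subunit of the m6A methyltransferase, were replaced by puromycin and hygromycin resistance genes. The number of KO colonies behind the library is not given in the sources used here, so a property of a cell line and an effect of the deletion cannot be told apart. The 10 tools gave 17 lists. Separate lists of WT and of KO exist for xPore and for the single-mode tools (ELIGOS, Epinano, m6Anet, MINES, Nanom6A, Tombo), which can be run on a single library. A single list that sets WT against KO exists for DRUMMER, DiffErr and Nanocompore, called comparison lists below. The separate lists of xPore are used as labelled, since xPore itself compares samples and what its lists hold is not stated in the sources used here. Below, a WT position is one in a WT list or a comparison list. A line gives where a position is and nothing on how many reads covered it or how strong the call was, so the depth at each position is unknown.

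PRC2 places methyl groups on lysine 27 of histone H3, and PRC1 attaches ubiquitin to histone H2A, and both marks lie on silent developmental genes in embryonic stem cells. EZH2 is the methyltransferase of PRC2, while SUZ12 and EED hold the complex together and EED also binds the finished mark. RING1 and RNF2 (RING1B) are the ubiquitin ligases of PRC1, and the partner that joins them (a PCGF protein, a CBX protein or RYBP) sets the type of PRC1. The m6A mark is placed mostly within the RRACH sequence (R is A or G, H is A, C or T), often near the stop codon and in the last exon.

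The sequences that carry the main results are printed first, from the GRCm38 (mm10) reference genome, as 21 bases 5′ to 3′ on the strand of the transcript, in DNA letters and with the 5-mer around the listed A in capitals. The reference is of another mouse strain than the cells. The first set holds 9 positions that at least 4 tools listed in WT or in the comparison and that were in no KO list.
Suz12, coding sequence, exon 16, chr11:80031892-80031912, plus strand: aaaattatGGACAgaaaataa
Suz12, 3′ UTR, exon 16, chr11:80032201-80032221, plus strand: catgttttGAACAgacactga
Suz12, 3′ UTR, exon 16, chr11:80032543-80032563, plus strand: taattatgAGACAttttctgg
Jarid2, 3′ UTR, exon 18, chr13:44921389-44921409, plus strand: actgctttGGACTatttaacg
Jarid2, 3′ UTR, exon 18, chr13:44921459-44921479, plus strand: cttgctgtGGACTttcccctc
Pcgf6, 3′ UTR, exon 10, chr19:47034429-47034449, minus strand: tacactaaAGACTatggaaac
Cbx7, 3′ UTR, exon 7, chr15:79917603-79917623, minus strand: cgccaattGGACCaggctttg
Cbx7, 3′ UTR, exon 7, chr15:79917754-79917774, minus strand: acacatccGGACAccccaaca
Rybp, coding sequence, exon 5, chr6:100232335-100232355, minus strand: attatcacAGACTttaaggaa

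The Pcgf6 and Rybp positions above and the following Mtf2 position were the only positions of the 10 genes in a comparison list, in each case that of Nanocompore.
Mtf2, 3′ UTR, exon 15, chr5:108107432-108107452, plus strand: ctactgaaAGACTgtaaaata

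The next set holds 5 of the 10 positions that at least 4 tools listed in WT and at least 2 tools also listed in KO.
Mtf2, 3′ UTR, exon 15, chr5:108106943-108106963, plus strand: tgactgtaGGACTgaacgtaa
Cbx7, 3′ UTR, exon 7, chr15:79916537-79916557, minus strand: gagattgtGGACTaggctgga
Ezh2, coding sequence, exon 15, chr6:47540719-47540739, minus strand: gaccattgGGACAgtaaaaat
Rnf2, 3′ UTR, exon 7, chr1:151471223-151471243, minus strand: actttcatGGACAgacctggg
Rnf2, 3′ UTR, exon 7, chr1:151471283-151471303, minus strand: caattctaAGACTgaactttt

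Eed and Ring1 had no position with 4 tools, and the last set shows 1 position of Eed and 2 of Ring1, of which the AGACT of Ring1 was in no KO list and the other 2 were in both WT and KO lists.
Eed, coding sequence, exon 2, chr7:89976897-89976917, minus strand: aaatgtgtGAACAgcctcaag
Ring1, coding sequence, exon 5, chr17:34022439-34022459, minus strand: ggttctgaAGACTctggtgac
Ring1, 3′ UTR, exon 7, chr17:34021131-34021151, minus strand: ggcagggtGGACAagaccccc

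The labels were first checked at Mettl3. At least 1 WT or comparison list held 13 positions of Mettl3 and at least 1 KO list held 5. In the replaced exons 5 to 7 there were 2 positions in WT and 0 in KO, in exons 1 to 4 there were 7 and 0, and in exons 8 to 11 there were 4 and 5. Of 12 marker genes of embryonic stem cells, 11 held a WT position and 10 a KO position, with Sall4 at 1 and 0 and no position analysed here for Lin28a. Of 9 markers of differentiated cells, 2 held a WT position (Sox17 with 12 in WT and 0 in KO, Tubb3 with 3 and 4), and the other 7, Gata4, Gata6, Foxa2, T, Pax6, Sox1 and Cdx2, held none. Of 6 markers of feeder fibroblasts, Thy1 held 3 in WT and 1 in KO, Col1a1 held 0 and 3, and Col1a2, Postn, Lum and Dcn held none. A list entry is no expression level, and the part of other cells in the results below was not tested.

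In the polycomb transcripts, most listed positions were shared by WT and KO. At least 1 WT or comparison list held 287 positions and at least 1 KO list held 241, of which 203 were the same positions. The ratio of KO to WT positions was 0.840 (95% exact binomial interval 0.705 to 1.0), beside 0.834 over all genes. All intervals here cover counting error only, and neighbouring positions share reads, so they describe these 2 libraries and not the conditions. There were 84 WT positions in no KO list, or 29.3% (95% Wilson interval 24.3 to 34.8), where the background over all 129045 WT or comparison positions was 41.0%. The median over 5773 genes with at least 10 WT positions was 37.5%. Mtf2 weighed on the share of the polycomb genes, with 50 WT positions and 1 of them in no KO list. A further 38 positions were in KO lists only, or 15.8% of the KO positions (11.7 to 20.9), beside 29.2% over all genes. The number of KO reads at each position was not analysed here, and the part of coverage in a missing KO listing was not tested.

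The 3 lists that set WT against KO directly held few of these positions. They held 3 of the 287 positions, which is 1.05% (0.356 to 3.03) beside a background of 2.45% over all genes. All 3 came from Nanocompore, and DiffErr and DRUMMER listed 0 positions in the 10 genes, where their whole lists held 1752 and 1267 positions. Each of the 3 positions was an AGACT in a last exon and was in no KO list. In Rybp the position at 100232345 lay 170 nt before the stop codon and was listed by 5 tools, namely Tombo, Nanom6A, m6Anet, xPore and Nanocompore. In Pcgf6 the position at 47034439 lay 192 nt after the stop codon and was listed by the same 5 tools. In Mtf2 the position at 108107442 lay 499 nt after the stop codon and was listed by Nanom6A, m6Anet and Nanocompore, and it was the only WT position of Mtf2 without a KO listing.

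Of the 287 positions, 163 (56.8%) were listed by 1 tool, 81 by 2 tools and 23 by 3 tools, while over all genes 65.3% were listed by 1 tool. At least 4 tools listed 20 positions (6.97%, 4.56 to 10.5), beside a background of 5.50%, and at least 6 tools listed 2 positions (0.697%), beside 1.98%. No position was listed by 7 or more tools, where few were over all genes: 0.522% by 7, 0.370% by 8, 0.214% by 9 and 0.0480% by 10. The tools are not independent. MINES takes the output of Tombo as its input and Nanom6A uses reads whose signal Tombo assigned to bases, while m6Anet, xPore and Nanocompore all start from the Nanopolish assignment of signal to bases. The 5 tools at the Rybp and Pcgf6 positions thus rest on 2 assignments of the signal. Among the positions with 1 tool, Tombo gave 69, Nanom6A 53, m6Anet 29, Epinano 7, xPore 3, and MINES and ELIGOS 1 each. The share from Nanom6A was 32.5% in the polycomb genes and 15.8% over all genes, and the share from Epinano was 4.29% and 26.0%. Of the 20 positions with at least 4 tools, 9 were in no KO list (45%, 25.8 to 65.8, beside 26.7% over all genes), and 2 were in a comparison list (10%, 2.79 to 30.1, beside 37.2%).

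**Figure D1:**
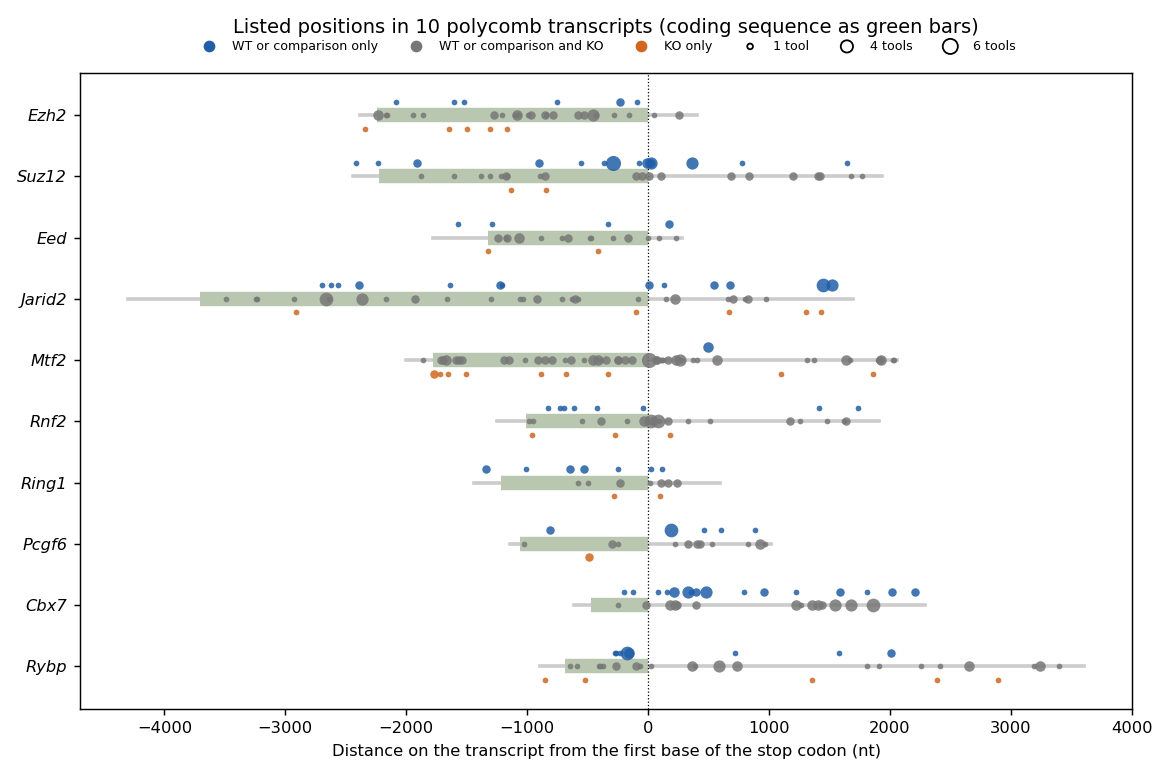
Each row is the transcript of a polycomb gene, drawn by distance in nt from the first base of the stop codon, with the coding sequence as a green bar and the untranslated regions as grey lines. Dots are listed positions, larger with more tools, in blue for WT or comparison only, grey for WT or comparison and KO, and orange for KO only: Cbx7 has 0 orange dots and Mtf2 has 1 blue dot.

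In the accounts of single genes, the positions named are the 3 with most tools in WT, and ties went to the position with fewer KO listings. Positions in a comparison list, or with 4 tools in both WT and KO, were named as well. This left out 20 positions with as many tools as a named position of their gene, and all 20 were in a KO list. The positions named are therefore weighted towards those without a KO listing, and some of the 20 were added below after their values were seen.

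Among the PRC2 core subunits, Ezh2 and Eed had nearly as many KO positions as WT positions over all tools, and Suz12 had fewer. The intervals of these genes overlap. Without Tombo and Nanom6A, Ezh2 held 12 WT and 8 KO positions, a ratio of 0.667. Eed then held 5 and 3 (0.6), and Suz12 20 and 11 (0.55). Ezh2 (ENSMUSG00000029687, minus strand, chr6:47530139-47595341) held 29 positions in WT or the comparison and 28 in KO, with 23 in both, and a ratio of 0.966 (0.554 to 1.68). Of these 29 positions, 27 lay in the coding sequence and 27 within 100 nt of an exon junction. The Ezh2 transcript consists mostly of short exons, and 86.5% of its RRACH sequences lie that near to a junction. The best supported position of Ezh2 was the GGACA at 47540729 in exon 15, which Tombo, MINES, Nanom6A and m6Anet listed in WT, and Tombo, Nanom6A and m6Anet listed again in KO. The GGACT at 47545745 in exon 10 was listed by Tombo, Nanom6A and m6Anet in WT and by the same 3 tools in KO. The AGACT at 47577651 in exon 2 was listed by Tombo, m6Anet and xPore in WT and by xPore in KO.

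Suz12 (ENSMUSG00000017548, plus strand, chr11:79993106-80034123) held 34 WT positions and 22 KO positions, a ratio of 0.647 (0.361 to 1.14). There were 20 positions in both, 14 in WT only and 2 in KO only. Nanom6A listed 19 positions in WT and 5 in KO, and all 5 were among the 19. Epinano listed 9 in WT and 1 in KO, m6Anet 14 and 7, and Tombo 14 and 9. The 3 positions of Suz12 with at least 4 tools were in no KO list, and all 3 lay in exon 16, the last exon. The GGACA at 80031902, 286 nt before the stop codon, was listed in WT by all 6 single-mode tools. The GAACA at 80032211, 23 nt after the stop codon, and the AGACA at 80032553, 365 nt after it, were listed by Tombo, Nanom6A, m6Anet and Epinano. The Suz12 transcript holds 0 GGACT and 0 AGACT.

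Eed (ENSMUSG00000030619, minus strand, chr7:89954654-89980983) held 18 WT and 16 KO positions, with 14 in both and a ratio of 0.889 (0.424 to 1.85). Most came from Nanom6A, with 12 positions in WT and 11 in KO. No position of Eed had more than 3 tools. The GAACA at 89976907 in exon 2, 11 nt from an exon junction, was listed by Tombo, Nanom6A and m6Anet in both WT and KO. The GGACT at 89954766 in the 3′ UTR, 173 nt after the stop codon and the only GGACT of the transcript, was listed by Tombo and Epinano in WT and was not in a KO list. The GGACA at 89977003 was listed by Tombo and xPore in WT and by Tombo in KO.

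Of the accessory subunits of PRC2, Jarid2 had 13 WT positions without a KO listing and Mtf2 had 1. Jarid2 (ENSMUSG00000038518, plus strand, chr13:44729474-44921643), a cofactor that helps PRC2 to reach its targets, held 39 WT and 31 KO positions, a ratio of 0.795 (0.480 to 1.31), with 26 in both. m6Anet listed 19 positions of Jarid2 in WT and 4 in KO, while Tombo listed 23 and 19. Without Tombo and Nanom6A, Jarid2 held 23 WT and 11 KO positions, a ratio of 0.478 (0.210 to 1.02). In the 3′ UTR, the GGACT at 44921399 was listed by 5 tools and the GGACT at 44921469, 70 nt further 3′, by 4 tools, and no tool listed either in KO. These lay 1449 and 1519 nt after the stop codon, and 244 and 174 nt before the annotated transcript end. The GGACT at 44902355 in exon 7, 2667 nt before the stop codon, was listed by 5 tools in WT and by Tombo and m6Anet in KO. The GGACA at 44902653 in the same exon also had 4 tools in WT, and Tombo and MINES listed it again in KO.

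Mtf2 (ENSMUSG00000029267, plus strand, chr5:108065674-108109004), a polycomb-like protein that binds DNA at CpG islands, was the only gene of the 10 with more KO than WT positions. It held 50 positions in WT or the comparison and 62 in KO, with 49 in both and 13 in KO only, a ratio of 1.24 (0.841 to 1.84) whose interval includes 1. Mtf2 also had the highest listed share of its RRACH sequences, 72.7% in WT and 84.8% in KO, where the medians over 5591 genes with at least 10 WT positions on a placed transcript were 41.7% and 32.0%. Nanom6A listed 38 positions in WT and 48 in KO, and Tombo 22 and 30, while m6Anet listed 13 and 5, and Epinano 8 and 4. Without Tombo and Nanom6A, Mtf2 held 20 WT and 13 KO positions, a ratio of 0.65 (0.297 to 1.37). The direction of the difference in Mtf2 thus turned when these 2 tools were left out, a choice made after seeing the values. The GGACT at 108106953, 10 nt after the stop codon, was listed by Tombo, MINES, Nanom6A, m6Anet, Epinano and xPore in WT, and by Tombo and Nanom6A in KO. The AGACT at 108107204, 261 nt after the stop codon, was listed by Tombo, MINES, Nanom6A and m6Anet in WT and again by Tombo and Nanom6A in KO.

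**Figure D2:**
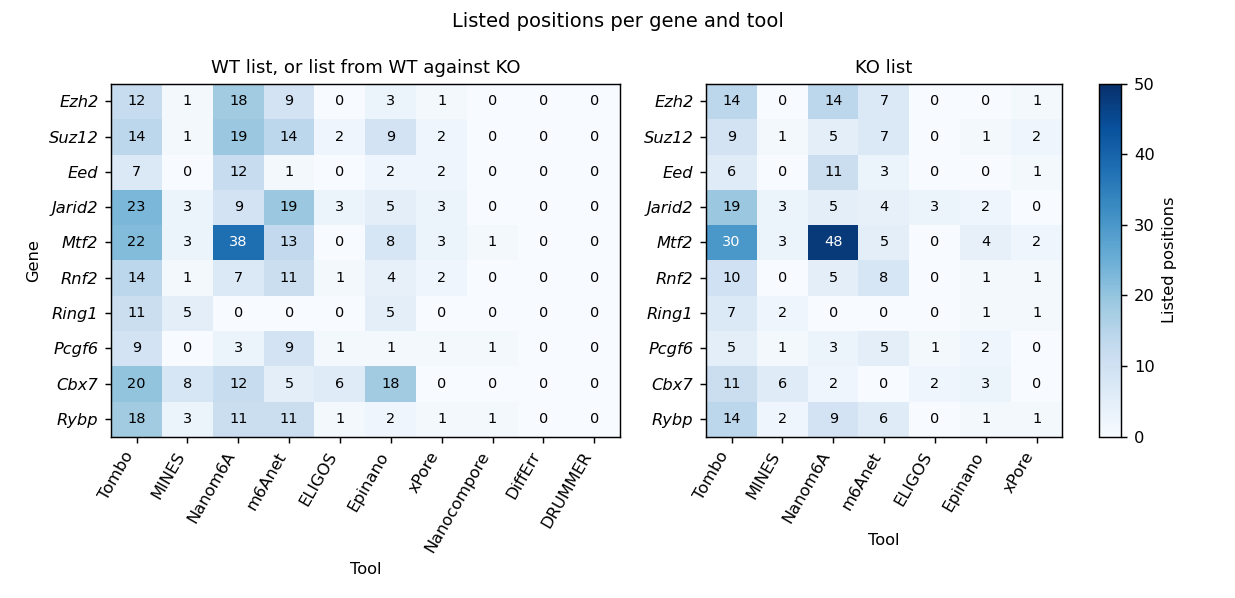
Number of listed positions per gene (rows) and tool (columns), in the WT lists or the lists from WT against KO (left) and in the KO lists (right), with darker blue for more positions. Nanom6A in Mtf2 has the highest count on each side, 38 and 48, and DiffErr and DRUMMER are at 0 in every gene.

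The ubiquitin ligases of PRC1 held fewer positions in KO than in WT, with intervals that include 1. Rnf2 (ENSMUSG00000026484, minus strand, chr1:151458004-151500955) held 26 WT and 21 KO positions, a ratio of 0.808 (0.432 to 1.49). Just after its stop codon, the AGACT at 151471293 (25 nt after) and the GGACA at 151471233 (85 nt after) were each listed by 5 tools in WT and by 2 tools in KO. The AGACT was listed again in KO by Nanom6A and m6Anet, and the GGACA by Tombo and m6Anet. The GAACT at 151471349, 31 nt before the stop codon, was listed by Tombo, Nanom6A and m6Anet in WT and by Nanom6A and m6Anet in KO. Of the WT positions of Rnf2, 8 of 26 lay within 200 nt of the stop codon, as did 8 of 21 KO positions.

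Ring1 (ENSMUSG00000024325, minus strand, chr17:34020792-34024680) held 14 WT and 9 KO positions, a ratio of 0.643 (0.245 to 1.59), and only 7 positions were in both. Nanom6A, m6Anet and ELIGOS listed 0 positions of Ring1 in either library, and no position had more than 2 tools. Tombo listed 11 positions in WT and 7 in KO, and MINES and Epinano listed 5 each in WT. Of the 5773 genes with at least 10 WT positions, 1.61% had a lower highest number of tools. Ties were frequent, since 22.6% of these genes had a highest number of 2 or fewer, and the median was 3. Only 2 of its 14 WT positions lay within 100 nt of an exon junction, while 45.9% of its RRACH sequences did. The AGACT at 34022449 in exon 5 was listed by Tombo and Epinano, and the AGACT at 34022563, 114 nt further 5′, by Tombo and MINES. Neither was listed in KO. The GGACC at 34024579 in the 5′ UTR was listed by Tombo and MINES in WT and was not in a KO list. The other 4 positions with 2 tools, at 34021141, 34021218, 34021276 and 34021818, were all in a KO list, and Tombo and MINES listed the GGACA at 34021141 in both WT and KO.

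Of the subunits that define types of PRC1, Cbx7 showed the lowest ratio of the 10 genes. Cbx7 (ENSMUSG00000053411, minus strand, chr15:79915807-79971119) carries a chromodomain that binds methylated histone H3 and is part of canonical PRC1. It held 32 WT positions and 14 KO positions, all 14 of which were in both, a ratio of 0.438 (0.216 to 0.843). Of the 5773 genes, 12.7% had a lower ratio. Epinano listed 18 positions of Cbx7 in WT and 3 in KO, Nanom6A 12 and 2, Tombo 20 and 11, MINES 8 and 6, ELIGOS 6 and 2, and m6Anet 5 and 0. Of the 30 WT positions that could be placed, 26 lay in the 3′ UTR (86.7%), as did 81.4% of the RRACH sequences of the transcript. The GGACC at 79917613 and the GGACA at 79917764, 482 and 331 nt after the stop codon, were listed by Tombo, MINES, Nanom6A and Epinano in WT and were in no KO list. The GGACA at 79916233, 1862 nt after the stop codon, was listed by 5 tools in WT and by MINES alone in KO. By contrast, the GGACT at 79916547, 1548 nt after the stop codon, was listed by Tombo, MINES, Nanom6A and ELIGOS in WT and by the same 4 tools in KO. The GGACA at 79916418, listed by Tombo, Nanom6A, ELIGOS and Epinano in WT, was listed by Tombo and MINES in KO. The GGACT at 79916547 was the only position of the 10 genes that 4 tools listed in both libraries.

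Pcgf6 and Rybp belong to variant PRC1, in which PCGF6 pairs with L3MBTL2, MGA and E2F6. Pcgf6 (ENSMUSG00000025050, minus strand, chr19:47033617-47050906) held 16 WT and 12 KO positions, a ratio of 0.75 (0.324 to 1.69). Apart from the AGACT at 47034439, its positions had few tools, and the GGACT at 47034301, 330 nt after the stop codon, was listed by Tombo and m6Anet in WT and by Tombo in KO. The GGACT at 47050572 in exon 1 was listed by Tombo and m6Anet in WT, with no KO listing. In all, 5 positions of Pcgf6 had 2 tools, and 4 of these were in a KO list, such as 47034200 and 47034224 with the same 2 tools in WT and KO. Rybp (ENSMUSG00000072872, minus strand, chr6:100228565-100287485), which binds the ubiquitin ligases, held 29 WT and 26 KO positions, a ratio of 0.897 (0.507 to 1.58). The AGACT at 100232331 lay 14 nt 3′ of the AGACT at 100232345, and Tombo, Nanom6A and m6Anet listed both in WT and neither in KO. The GGACA at 100231591, 584 nt after the stop codon, was listed by Tombo, MINES, m6Anet and ELIGOS in WT and by Tombo, MINES and m6Anet again in KO. The GAACT at 100231809 was listed by Tombo, Nanom6A and m6Anet in both WT and KO.

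Set side by side, 9 of the 10 genes held fewer KO than WT positions and Mtf2 held more. The ratios ran from 0.438 in Cbx7 to 1.24 in Mtf2. The interval excluded 1 only in Cbx7. The intervals of all 10 genes overlapped, and those of Cbx7 (up to 0.843) and Mtf2 (from 0.841) did so only just. Fewer KO than WT positions were also common over all genes. Of the 5773 genes with at least 10 WT or comparison positions, 75.6% had a lower ratio than Ezh2 (0.966). Their median ratio was 0.8, the quartiles were 0.6 and 0.957, and the range from the 5th to the 95th percentile was 0.2 to 1.25. All 10 polycomb genes lay within that range, and 94.8% of genes had a lower ratio than Mtf2. The 5773 genes were chosen by their WT positions alone. Genes with many KO and few WT positions are thus left out, which can raise the share below Mtf2.

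**Figure D3:**
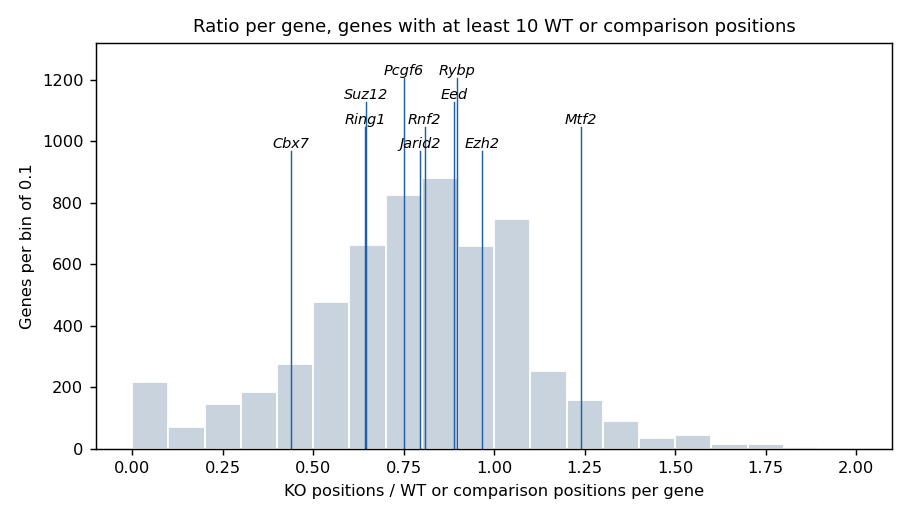
Histogram of the ratio of KO to WT or comparison positions per gene (bins of 0.1, number of genes on the y axis), with the 10 polycomb genes as blue lines. Genes at a ratio of 2 or more are not drawn, and the lines run from 0.438 in Cbx7 to 1.24 in Mtf2.

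Each of the 7 tools with lists of both libraries held fewer polycomb positions in KO than in WT, and the tools differed in how many fewer. Tombo listed 150 positions in WT and 125 in KO, a ratio of 0.833 (0.652 to 1.06), beside 0.905 over all genes. Nanom6A listed 129 and 102, a ratio of 0.791 (0.604 to 1.03), beside 0.831. Without Mtf2, the Nanom6A ratio was 0.593. MINES listed 25 and 18, a ratio of 0.72 (0.370 to 1.37), beside 0.703. The interval excluded 1 in m6Anet and Epinano. m6Anet listed 92 and 45, a ratio of 0.489 (0.335 to 0.706), beside 0.580 over all genes, with fewer KO positions in 8 of the 10 genes, more in Eed and no position in Ring1. Epinano listed 57 and 15, a ratio of 0.263 (0.138 to 0.471), beside 0.339, with fewer in 9 of the 10 genes and more in Pcgf6. The share of genes with fewer KO positions per tool was not counted over all genes. ELIGOS listed 14 and 6, a ratio of 0.429 (0.135 to 1.19), beside 0.259, and without Jarid2 the ELIGOS ratio was 0.273. xPore listed 15 and 9, a ratio of 0.6 (0.232 to 1.46), beside 0.446.

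**Figure D4:**
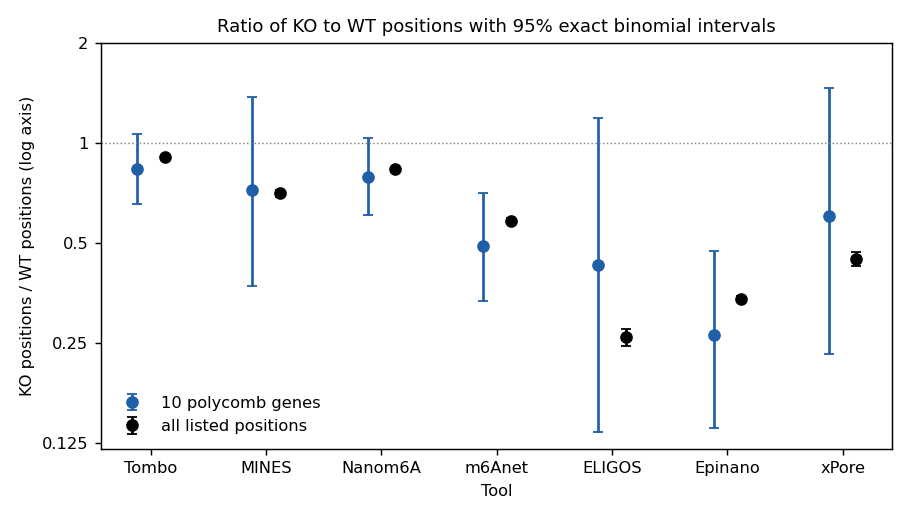
Ratio of KO to WT positions per tool (log axis) in the 10 polycomb genes (blue) and over all listed positions (black), with 95% exact binomial intervals that cover counting error only. The blue interval lies below 1 for m6Anet and Epinano, and it includes 1 for the other 5 tools.

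The same tools also differed in how often they listed the very same position again in KO. Tombo did so for 69.3% of its WT positions in the polycomb genes (61.5 to 76.2), beside 59.7% over all genes, and Nanom6A for 65.9% (57.4 to 73.5), beside 65.4%. The share was 46.7% for xPore (24.8 to 69.9), beside 24.9%, and 40% for MINES (23.4 to 59.3), beside 40.2%. m6Anet repeated 37.0% (27.8 to 47.2), beside 34.4%, and ELIGOS 5 of 14 positions (35.7%, 16.3 to 61.2), beside 11.5%. Epinano repeated 14.0% (7.29 to 25.3), beside 16.5%. With a KO listing by any tool, the shares were higher, from 59.8% for m6Anet to 78.6% for ELIGOS, and were not computed over all genes.

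Along the transcript, the polycomb positions were spread over the coding sequence and the 3′ UTR. Of 283 WT or comparison positions that could be placed, 148 (52.3%) lay in the coding sequence, 130 (45.9%) in the 3′ UTR and 5 in the 5′ UTR. Within 200 nt of the stop codon lay 18.4% (14.3 to 23.3), beside 14.6% of the 529 RRACH sequences of the same transcripts. Over all genes, 22.4% of placed positions lay there, beside 12.8% of the RRACH sequences. In KO the share in the polycomb genes was 16.2% (12 to 21.4), beside 21% over all genes. Of the 20 positions with at least 4 tools, 15 lay in the 3′ UTR and 17 in the last exon, 6 lay within 200 nt of the stop codon and 3 within 100 nt of an exon junction. Over all genes, 82.6% of the positions with at least 4 tools lay in the last exon and 45.8% within 200 nt of the stop codon. The tools differed in place as well: 44 of 56 placed WT positions of Epinano and 13 of 14 of ELIGOS lay in the last exon, against 77 of 146 of Tombo.

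WT or comparison lists held 53.5% of the 529 RRACH sequences (49.2 to 57.7) and KO lists 44.4% (40.2 to 48.7), beside 25.7% and 21.4% of 486730 over all genes. That background includes genes with few listed positions, while each polycomb gene held at least 14 in WT. Over the 5591 genes with at least 10 WT positions on a placed transcript, the medians were 41.7% in WT and 32.0% in KO. In the first 200 nt from the stop codon on, 33 of 43 RRACH sequences were listed in WT (76.7%, 62.3 to 86.8) and 25 in KO (58.1%, 43.3 to 71.6). Over all genes, the shares in that stretch were 48.5% and 35.7%. In the 200 nt before the stop codon, 19 of 34 were listed in WT and 13 in KO. From 1000 to 1200 nt after the stop codon, WT lists held 2 of 11 (18.2%, beside 20.7% over all genes) and KO lists 3. From 1800 to 2000 nt, each held 7 of 11 (63.6%, beside 14.5% in WT and 12.2% in KO over all genes). The listed positions in that last stretch were all of Mtf2, Cbx7 and Rybp. Per gene, the WT share ran from 37.8% in Ring1, below the median of 41.7% over genes, to 72.7% in Mtf2.

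**Figure D5:**
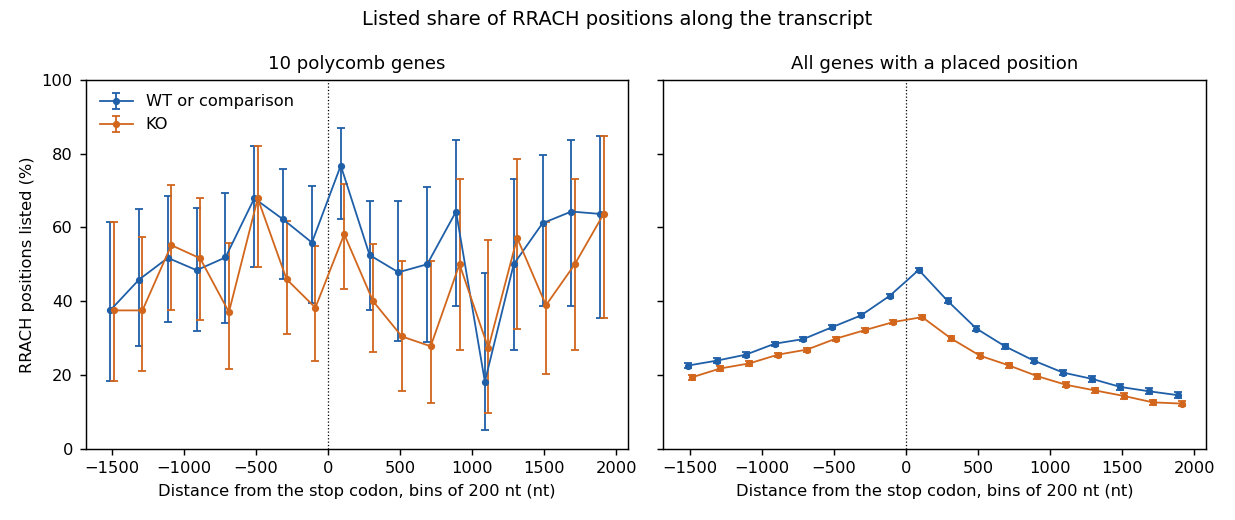
Share of RRACH sequences listed (%) in bins of 200 nt by distance from the stop codon, in WT or comparison lists (blue) and KO lists (orange), for the 10 polycomb genes (left) and all genes with a placed position (right), with 95% Wilson intervals. The highest WT value on each side is in the bin from 0 to 200 nt, 76.7% in the polycomb genes and 48.5% over all genes, and the bins of the polycomb genes hold 11 to 43 sequences each. The right side includes genes with few listed positions.

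All 325 positions lay in RRACH 5-mers, read on the spliced transcript where they could be placed, beside 99.6% over all genes. In the genome sequence, 286 of the 287 WT or comparison positions did. The tools were run on RRACH sequences, so these shares were largely fixed beforehand. The polycomb transcripts held few GGACT sequences, 20 of 529 RRACH sequences, of which WT or comparison lists held 14. GGACT made up 15 of the 287 WT or comparison positions, including 1 off the transcript used (5.23%, 3.19 to 8.44), beside 11.9% over all genes. The most frequent 5-mer was GAACT with 37 positions (12.9%), beside 7.68% over all genes. AAACA and AGACA had 33 positions each, beside 7.22% and 12.9% over all genes for their shares of 11.5% each, and GGACA and AGACT had 32 each. Of the GGACA sequences of the transcripts, 31 of 40 were listed in WT, against 15 of 52 AAACC sequences. Among the 20 positions with at least 4 tools, 8 were GGACA, 5 were GGACT, 4 were AGACT, and 1 each was in GGACC, in AGACA and in GAACA. MINES listed polycomb positions in GGACT, in GGACA, in GGACC and in AGACT only, all 25 in WT and all 18 in KO, so it could add to the number of tools in these 5-mers only. AGACT made up 13 of the 84 positions in no KO list (15.5%, 9.27 to 24.7), beside 10.7% over all genes, and GAACA 11 (13.1%, 7.47 to 21.9), beside 7.04%.

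A further 36 polycomb genes from a list of PRC2, PRC1 and PR-DUB subunits were counted in the same way. Of these, 26 held a WT or comparison position and 5 (Phf1, Phf19, Phc3, Asxl2 and Asxl3) held no position in any list. Together they held 492 WT and 450 KO positions, a ratio of 0.915 (0.803 to 1.04), with fewer KO than WT positions in 15 genes, more in 12 and equal numbers in 4. The 12 include 5 genes with KO positions only, namely Scmh1 (10), Scml2 (7), Bcor (14), Bcorl1 (14) and Auts2 (2). Comparison lists held 19 of the 492 positions (3.86%, 2.49 to 5.95), beside the background of 2.45%, in 4 genes. Epop alone held 15 of the 19, and without Epop the share was 4 of 463 (0.864%, 0.336 to 2.20). Of these genes, Epop, a PRC2 cofactor that binds elongin, held 13 positions of Nanocompore, 11 of DiffErr and 7 of DRUMMER, and 9 positions in at least 2 of these lists. The other 3 genes, named after their values were seen, were L3mbtl2 with 2 positions of Nanocompore, Phc1 with 1 of Nanocompore and Foxk2 with 1 of DRUMMER. Epop held 29 WT and 29 KO positions, and 27 were in both. The most WT or comparison positions were in Asxl1 of PR-DUB (54, with 22 in KO), the PRC2 cofactor Aebp2 (39, with 12 in KO) and the PRC1 partner Dcaf7 (33, with 20 in KO). In the other direction, Mga, a partner of PCGF6 named after its values were seen, held 13 WT and 43 KO positions, and without Mga the ratio over these genes was 0.85 (0.743 to 0.972).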

How the data were processed

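Native poly(A) RNA of WT and Mettl3 KO mESCs was sequenced by DRS, with 1 library per condition. The authors aligned the reads to a GENCODE mouse transcriptome, ran the tools on RRACH sequences with a minimum of reads (a higher one for m6Anet), and converted positions to GRCm38 (mm10 per the labels). The values the authors deposited are genome positions (integers, no other measure), and the cut-off behind each list is not stated in the sources used here. The methods chose a cut-off per tool against antibody-based m6A sets, but several deposited lists are longer or shorter than the range of site numbers given for those cut-offs. Libraries were grouped by their labels.

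A site was a unique chromosome, position and strand. Exons were taken from GENCODE M21 on the same build, an earlier release having been used for the alignment. Of 967 lines in the 10 genes, 736 give a transcript position that was checked: 700 gave the same base as the genome position, and the other 36 were all of 1 Pcgf6 transcript, at a constant shift. For each gene, the coding transcript named by most lines gave distances, and 8 positions were off it. Shares have Wilson intervals and ratios exact binomial intervals. No test was made, since each condition had 1 library. The positions named were those in a comparison list, the 3 of each gene with most tools (ties to fewer KO tools, then genomic order), and those with at least 4 tools in both libraries, with some tied positions added after their values were seen. The genes and lists were chosen with earlier results of these data known. Functions were tested on simulated data, where 379 of 400 ratio intervals held the true ratio. Alternatives for matching, windows, tools and transcripts are given at the end. Python 3.11.15 with numpy 2.4.6, scipy 1.17.1, pysam 0.24.0 and matplotlib 3.10.9 were used.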

Additional observations from a re-analysis of the deposited data

How the results depend on the processing

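Of the alternatives run, 124 values stayed within their interval (counts within 1.5 times) and 14 moved further, and no ratio over the 10 genes changed its direction. Without Tombo and Nanom6A, the ratio of Mtf2 turned from 1.24 to 0.65 and that of Jarid2 went from 0.795 to 0.478. Those of Ezh2 and Eed went from 0.966 to 0.667 and from 0.889 to 0.6, and the ratio of each other gene was lower as well. The cause of these moves was not tested. Counted once per line, the WT or comparison positions were 592. With a KO listing by any tool, the repeated share was 76% for MINES, 74.4% for Nanom6A, 59.8% for m6Anet, 78.6% for ELIGOS, 61.4% for Epinano and 73.3% for xPore. The same shares were not computed over all genes. Without Mtf2, the Nanom6A ratio was 0.593, and without Jarid2, the ELIGOS ratio was 0.273. The share near the stop codon was 10.2% in WT and 9.36% in KO within 100 nt, and 33.9% and 30.2% within 400 nt. GGACT made up 8.87% of positions with at least 2 tools. Over all exons of the genes, 36.3% of RRACH sequences were listed. Leaving out each gene in turn gave ratios over all lists from 0.755 to 0.89. Alternatives that leave out tools or a gene for this overall ratio, and tools for the ratio of each gene, were chosen after seeing the data.

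No paired analysis was possible because each condition had 1 library. The lists hold no reads or coverage, so a position with too few reads for a tool and a position below its cut-off cannot be told apart. The intervals treat positions as independent, while positions of 1 transcript share reads.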
